A study of Mus musculus with 4 samples.

Results

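Nuclear genes for subunits of respiratory complexes I to IV were examined in bone marrow-derived dendritic cells (BMDC) cultured with or without ovarian epithelial cells. A list of 44 mouse gene symbols was searched for in the annotation of the array. Of these, 43 had a probe set annotated to that gene alone, and Cox7b was not found. The 43 genes, of 18193 genes measured, comprised 24 of complex I (names starting with Nduf), 4 of complex II (Sdh), 7 of complex III (Uqcr and Cyc1) and 8 of complex IV (Cox). Where a gene had several probe sets, that of the highest log2 signal averaged across arrays stood for it, a choice that does not use the differences between conditions.

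Marrow of male C57BL/6 mice aged 6 to 8 weeks was grown for 7 days with 500 U/ml of GM-CSF, the growth factor commonly used to raise dendritic cells from marrow. All 4 groups shared these culture conditions and a flow cytometric sort by a fluorescein-labelled antibody to the costimulatory protein CD80. The control BMDC had no contact with 1D8, a mouse ovarian surface epithelial cell line. The live coculture received 1D8 cells at 1 tumour cell to 5 BMDC, the irradiated coculture received 1D8 cells given 50 Gy, and the conditioned-medium culture received 1D8 supernatant at 25% of the volume. How long the cells were exposed and how many mice gave marrow are not given in the sources used here. Each condition was measured on 1 Affymetrix array. Without replicates, neither a signal nor a ratio has an error, and no test was run. Higher and lower describe these 4 arrays, whose number sets the precision.

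Oxidative phosphorylation takes electrons from NADH and succinate and passes them along carriers in the inner mitochondrial membrane to oxygen. Complex I oxidises NADH and complex II oxidises succinate, and both hand electrons to ubiquinone. Complex III moves them on to cytochrome c and complex IV reduces oxygen, while complexes I, III and IV pump protons that drive ATP synthase. Complexes I, III and IV contain subunits from both the nuclear and the mitochondrial genome, whereas all subunits of complex II are nuclear. GM-CSF-grown dendritic cells at rest are known to respire, and microbial stimulation moves them towards glycolysis.

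Most members gave less signal on every treated array than on the control array. Of 43 members, 42 were below the control with live 1D8 cells, 40 with irradiated cells and 42 in conditioned medium. Among the 9847 genes whose signal was above the floor on all 4 arrays, 53.5% were below the control with live cells, 53.8% with irradiated cells and 49.8% in conditioned medium. The floor was a signal of 44.3, the 50th percentile of all signals, to which dimmer values were raised. No member was under it on any array. The members' median log2 ratio was -0.51 (range -1.27 to 0.86) with live 1D8 cells, -0.50 (range -1.27 to 1.02) with irradiated cells and -0.37 (range -1.23 to 0.71) in conditioned medium. The median over the genes above the floor was -0.04, -0.05 and 0.00 in the same order. In bulk RNA of sorted cells, fewer cells of a type and less RNA per cell cannot be told apart. The 3 comparisons also share the single control array, so their likeness is not independent evidence.

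**Figure D1:**
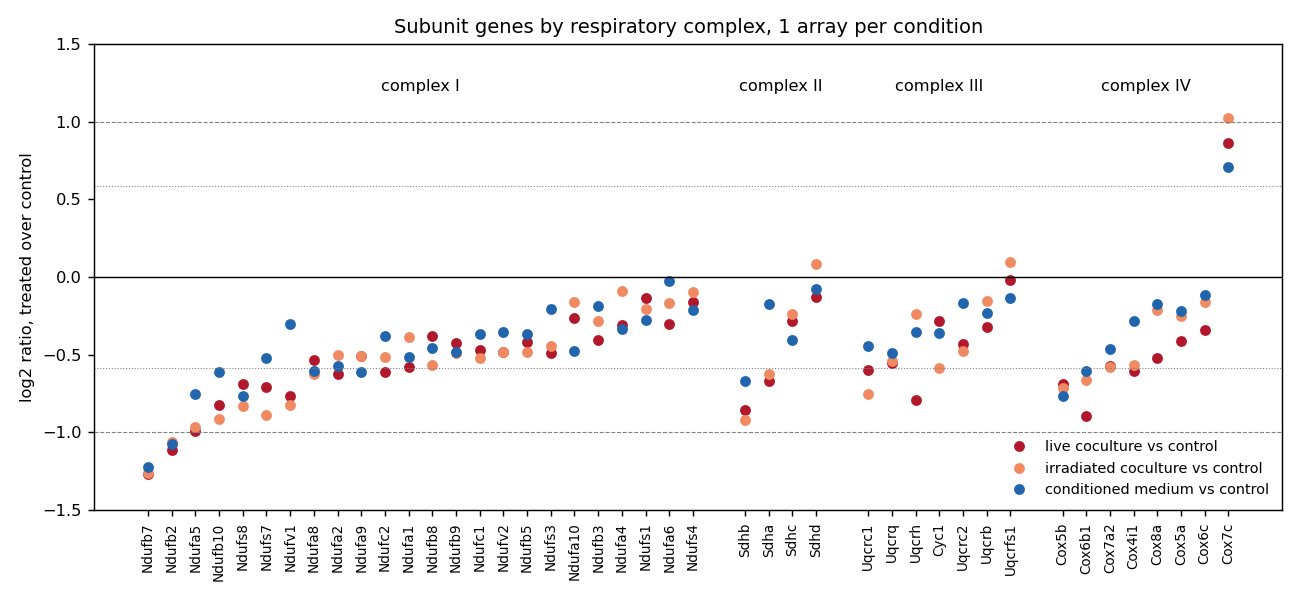
Log2 ratio of the treated to the control array (y axis) for each of the 43 members (x axis), ordered within each complex from the lowest to the highest mean ratio. Each gene has 3 points, 1 per treated culture; dotted lines mark 1.5-fold and dashed lines 2-fold. Ndufb7 and Ndufb2 lie under the lower dashed line in all 3 colours, most members lie between 0 and the lower dotted line or just under it, and Cox7c is the gene with all 3 points above 0.58.

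The differences were small. At a 2-fold threshold and by the probe sets used, Ndufb2 and Ndufb7 were lower in all 3 comparisons and no other member was. Thus 2 of 43 members (4.65%) were lower in each, beside 2.23% of all genes with live cells, 2.25% with irradiated cells and 1.41% in conditioned medium. Among the genes above the floor on all arrays, as all members were, these shares were 3.33%, 3.36% and 2.01%. Probe sets not used also passed 2-fold lower for Sdha in the live coculture (log2 ratio -1.23). In the irradiated coculture they did so for Ndufs7 (-1.14), Ndufs8 (-1.04) and Ndufa5 (-1.01). Cox7c was 2-fold higher in the irradiated coculture and no member was 2-fold higher in the other cultures, beside 3.47% of all genes in the irradiated coculture, 3.36% in the live coculture and 2.30% in conditioned medium. At a 1.5-fold threshold, 16 members were lower with live cells (7.74% of all genes), 14 with irradiated cells (8.16%) and 10 in conditioned medium (6.41%). Cox7c alone was 1.5-fold higher in the live coculture (9.25% of all genes), the irradiated coculture (8.61%) and conditioned medium (7.92%). The 8 members that were 1.5-fold lower on all 3 treated arrays by the probe sets used were Ndufa5, Ndufb2, Ndufb7, Ndufb10, Ndufs8, Sdhb, Cox5b and Cox6b1. Another 23 members stayed within 1.5-fold on all 3 arrays.

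The size of these counts depended on how the arrays were scaled. Brightly measured genes as a whole were lower on the treated arrays: 956 other genes with a mean signal between 827 and 1922, the interquartile range of the members, had median log2 ratios of -0.18, -0.14 and -0.15 in the live coculture, the irradiated coculture and conditioned medium. Of these 956 genes, 67.2%, 61.5% and 64.3% were below the control, and 18.6%, 16.7% and 15.4% were at least 1.5-fold lower. At 2-fold, 5.5%, 4.5% and 2.8% of them were lower, beside 4.65% of the members in each comparison. After quantile normalization, which gives all arrays the same distribution, the medians of these other genes moved to -0.03, -0.04 and -0.01. The members' medians were then -0.35, -0.39 and -0.26, with 8, 11 and 4 members of 43 at least 1.5-fold lower. Of the 956 other genes, 12.3%, 11.4% and 8.9% were at least 1.5-fold lower under that scaling. In conditioned medium the share of the members lower was then close to that of these other genes. Members close to the control crossed it under that scaling: Sdhd and Uqcrfs1 with live cells, and Sdhd, Uqcrfs1, Sdha, Ndufa6, Cox6c and Cox8a in conditioned medium, which left 40, 40 and 36 below the control. With each array centred on its median, the members' medians were -0.63, -0.57 and -0.48 and the counts 25, 20 and 16. The share of the 956 other genes at least 1.5-fold lower was then 27.5%, 19.9% and 21.7%. The members' medians were thus under 0, and under those of the 956 other genes, in each of these scalings, whereas the number past 1.5-fold varied with the scaling. Most complex IV members were brighter than the range that these other genes cover.

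**Figure D2:**
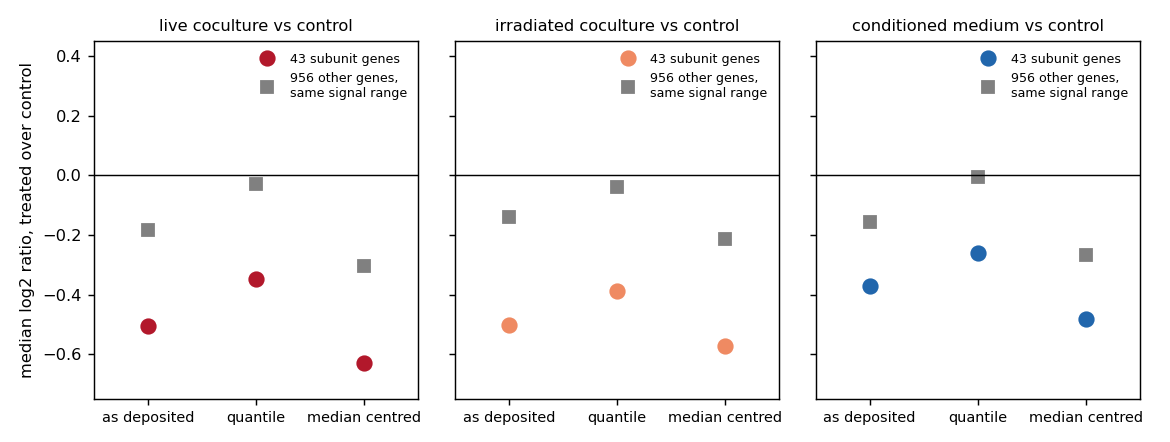
Median log2 ratio of the treated to the control array (y axis) under 3 scalings (x axis: as deposited, quantile, median centred), with 1 panel per treated culture. Circles are the 43 members and squares the 956 other genes in the interquartile range of their signal. Circles run from -0.26 to -0.63 and squares from -0.01 to -0.31, and in every panel the circle lies under the square.

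Among the promoters that RefSeq (assembly GRCm38.p6) gives for the mouse genes, 33 measured members had a sequence from 250 bases before to 50 bases after the start. The 100 bases before the start are shown for 6 members that span the range of differences: Ndufb7 and Ndufb2, the members 2-fold lower on all treated arrays; Ndufa8 and Uqcrh, 2 members past 1.5-fold that carry a motif next to the start; and Sdhd and Uqcrfs1, which stayed close to the control. Their windows are chr8:83566658-83566757 (plus strand), chr6:39592465-39592564 (plus), chr2:36049339-36049438 (minus), chr4:116075071-116075170 (minus), chr9:50603850-50603949 (minus) and chr13:30545317-30545416 (minus). All are written 5′ to 3′ on the strand of the gene, each ends at the base before the start, and capitals mark a motif.
Ndufb7: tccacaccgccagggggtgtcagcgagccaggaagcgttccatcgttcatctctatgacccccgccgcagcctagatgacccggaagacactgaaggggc
Ndufb2: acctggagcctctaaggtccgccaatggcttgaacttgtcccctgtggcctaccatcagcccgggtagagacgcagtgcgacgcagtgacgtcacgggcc
Ndufa8: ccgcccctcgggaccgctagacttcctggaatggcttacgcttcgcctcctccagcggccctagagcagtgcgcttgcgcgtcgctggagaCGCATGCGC
Uqcrh: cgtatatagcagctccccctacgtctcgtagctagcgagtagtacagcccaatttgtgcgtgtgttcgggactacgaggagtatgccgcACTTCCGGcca
Sdhd: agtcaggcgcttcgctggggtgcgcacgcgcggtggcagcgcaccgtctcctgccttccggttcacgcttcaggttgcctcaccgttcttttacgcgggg
Uqcrfs1: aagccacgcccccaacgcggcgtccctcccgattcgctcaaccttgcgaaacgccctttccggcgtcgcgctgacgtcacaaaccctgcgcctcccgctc

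Nuclear genes of the respiratory chain are known targets of NRF1, GABP and YY1, so 1 set of letters for each factor was searched on both strands of the full windows. The letters GCGCATGCG, for NRF1, were found in Ndufa8 and Uqcrc1 (2 of 33 members, beside 1.75% of 32851 promoters). The letters CCGGAAGT, for GABP, were found in Ndufs3, Uqcrh and Cox8a (3 of 33, beside 3.89%). The letters AAGATGGCG, for YY1, were found in Ndufc1, Ndufa9, Ndufs7 and Ndufs4 (4 of 33, beside 1.4%). In the windows printed above, the capitals in Ndufa8 are the NRF1 letters and those in Uqcrh the GABP letters, each read on the opposite strand. No member held more than 1 of the 3 sets, and 9 of 33 held any, beside 6.69% of all promoters. Members with a motif had a median log2 ratio of -0.53, -0.51 and -0.37 in the live coculture, the irradiated coculture and conditioned medium, and the 24 without had -0.58, -0.54 and -0.42. Ndufs4 held the YY1 letters, while neither Ndufb7 nor Ndufb2 held any of the 3. A match describes the letters in the window and is no evidence of binding. The promoters were rich in G and C, with a median of 58.7% over 34 member promoters and 52.7% over all promoters. None of the 34 had TATAAA in the 50 bases before the start, beside 2.63% of all promoters. These windows and motifs were chosen after the values had been seen.

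Complex I held both members that were 2-fold lower by the probe sets used. All 24 complex I genes were below the control on all 3 treated arrays as deposited (Ndufa6 not in conditioned medium after quantile normalization), with a median log2 ratio of -0.50 with live cells (SD over genes 0.28), -0.50 with irradiated cells (SD 0.32) and -0.47 in conditioned medium (SD 0.27). At 1.5-fold, 9, 8 and 7 of the 24 were lower in the same order. Ndufa4 is grouped here by its name, although its protein is now assigned to complex IV.

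Ndufb7, an accessory subunit on the intermembrane-space face of the membrane arm, had a signal of 2516 in the control, 1045 with live 1D8 cells, 1046 with irradiated 1D8 cells and 1074 in conditioned medium. The 3 treated arrays were alike and stood 2.41-fold, 2.40-fold and 2.34-fold under the control. A further probe set of the gene gave log2 ratios of -1.24, -1.12 and -1.22. Ndufb2, a small accessory subunit of the same arm, had signals of 1599, 737, 766 and 758 in that order of cultures. It was 2.17-fold, 2.09-fold and 2.11-fold lower, and again the treated arrays hardly differed from each other. Ndufb10, also of the membrane arm, had signals of 1197, 676, 635 and 782, and was lowest in the irradiated coculture.

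The peripheral arm of complex I carries the flavin and the iron-sulphur clusters that take electrons from NADH. Ndufv1, the subunit that binds the flavin and NADH, had signals of 946 in the control, 555 with live 1D8 cells, 533 with irradiated 1D8 cells and 768 in conditioned medium, so that conditioned medium lay between the control and the cocultures. Ndufs7 and Ndufs8 hold iron-sulphur clusters near the ubiquinone site. Ndufs7 gave 1148, 702, 619.6 and 799.7 for those cultures. Ndufs8 had signals of 1868, 1159, 1049 and 1096. All treated arrays were below the control for both genes. For Ndufs8 the probe sets disagreed: of 6, the one used and 3 others were lower on all treated arrays, but 2 dimmer ones were higher, with log2 ratios of 1.28, 1.33 and 1.21 for 1 and 0.56, 0.24 and 1.09 for the other. The direction given for Ndufs8 therefore rests on the choice of probe set. Ndufs1, which holds several iron-sulphur clusters, had signals of 393, 357, 340.5 and 323.5 and stayed within 1.5-fold, as did Ndufs3. Ndufv2 did so by the probe set used, but its further probe sets were past 1.5-fold lower on all treated arrays. Their log2 ratios were -0.97, -0.98 and -0.855 for 1 and -0.83, -0.78 and -0.73 for the other.

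Ndufa5, an accessory subunit of the peripheral arm, had signals of 583 in the control, 293 with live 1D8 cells, 299 with irradiated 1D8 cells and 345 in conditioned medium. It was 1.99-fold, 1.95-fold and 1.69-fold lower, just short of 2-fold in the cocultures. Its other probe set, also above the floor on all arrays, gave log2 ratios of -0.40, -1.01 and -0.46. By that one it passed 1.5-fold in the irradiated coculture alone. Ndufa8, whose promoter with NRF1 letters is printed above, had signals of 1476, 1019, 958 and 968. Ndufa9, which binds NADPH, had signals of 1413, 994, 993 and 925. Both were nearly level across the treated arrays. Ndufa2 had signals of 1665, 1079, 1177 and 1118, and Ndufc2 signals of 2546, 1666, 1779 and 1957, and both passed 1.5-fold in the live coculture. Ndufa1 came close with signals of 4264, 2849, 3260 and 2984, and with live cells its log2 ratio of -0.58 stopped just short of the threshold. At the other end, Ndufs4, an accessory subunit needed for a stable complex, had signals of 567, 507, 530.5 and 489.5, a log2 ratio of -0.16, -0.10 and -0.21. Ndufa6 had 925.5 in the control and 910.0 in conditioned medium, its nearest treated array.

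**Figure D3:**
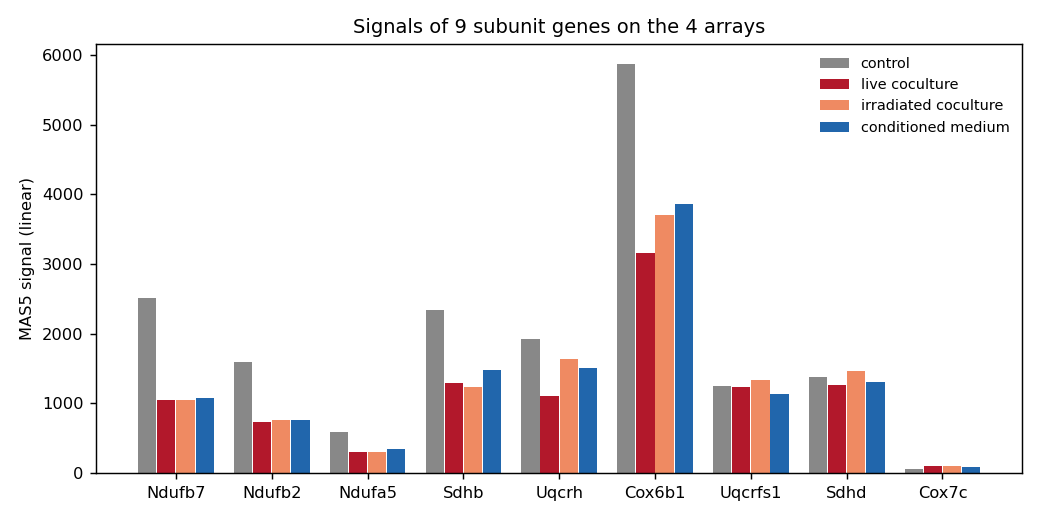
MAS5 signal (linear y axis from 0) of 9 members (x axis) on the 4 arrays; each bar is 1 array, so there are no error bars, and heights are to be compared within a gene. The control bar of Ndufb7 reaches 2516 and its treated bars 1045 to 1074, the 4 bars of Sdhd and of Uqcrfs1 are nearly level, and those of Cox7c lie near 0 on this scale.

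Complex II is also the citric acid cycle's succinate dehydrogenase, with 2 catalytic subunits and 2 membrane anchors. Sdha, which binds the flavin, had signals of 2339 in the control, 1472 with live 1D8 cells, 1517 with irradiated 1D8 cells and 2071 in conditioned medium. Sdhb, the iron-sulphur subunit, had signals of 2343, 1295, 1235 and 1472. Both were at least 1.5-fold lower in the cocultures, and Sdhb also in conditioned medium, where it was 1.59-fold lower. For Sdha, another probe set above the floor on all arrays gave larger differences. Its log2 ratios were -1.23 with live cells, -0.97 with irradiated cells and -0.52 in conditioned medium. Of the anchors, Sdhc had signals of 1432, 1178, 1214 and 1081 and Sdhd signals of 1377, 1260, 1462 and 1304. Sdhd was within 1.5-fold everywhere and was higher than the control in the irradiated coculture (log2 ratio 0.09). The median over the 4 genes was -0.47, -0.43 and -0.29 in the live coculture, the irradiated coculture and conditioned medium, with 2, 2 and 1 of 4 lower at 1.5-fold.

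In complex III, the median over 7 genes was -0.43 with live cells (SD over genes 0.25), -0.48 with irradiated cells (SD 0.29) and -0.35 in conditioned medium (SD 0.14), with 2, 2 and 0 genes lower at 1.5-fold. Uqcrc1, a core protein on the matrix side, had signals of 1814 in the control, 1195 with live 1D8 cells, 1076 with irradiated 1D8 cells and 1330.2 in conditioned medium. Cyc1, the cytochrome that hands electrons to cytochrome c, had signals of 2215, 1818, 1476 and 1723, and passed 1.5-fold in the irradiated coculture. Uqcrh, the hinge protein that assists that transfer, had signals of 1925, 1109, 1632 and 1508. The live coculture was the lowest array for Uqcrh and the irradiated coculture the lowest for Cyc1, so these neighbours in the chain did not follow the same order. A further probe set of Uqcrh gave log2 ratios of -0.92, -0.56 and -0.61, with the live coculture again lowest. Uqcrfs1, the Rieske iron-sulphur protein at the catalytic centre, had signals of 1247, 1231, 1333 and 1137 and stayed close to the control. Uqcrb, a small subunit of the membrane domain, had signals of 6415, 5118, 5755 and 5456 and was within 1.5-fold on every treated array.

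Complex IV had its mitochondrially encoded catalytic core unmeasured here, and the 8 members are nuclear subunits around it. Their median was -0.55 with live cells (SD over genes 0.54), -0.41 with irradiated cells (SD 0.56) and -0.25 in conditioned medium (SD 0.45), with 3, 2 and 2 genes lower at 1.5-fold. Cox6b1, which joins the monomers of the enzyme on its outer face, had signals of 5867 in the control, 3159 with live 1D8 cells, 3707 with irradiated 1D8 cells and 3858 in conditioned medium, 1.86-fold lower in the live coculture. Cox4i1, the subunit through which ATP inhibits the enzyme, had signals of 5253, 3458, 3547 and 4309 and passed 1.5-fold in the live coculture. Cox5b had signals of 4093, 2534, 2488 and 2402 and was lower on all treated arrays. In conditioned medium this direction held for all 3 of its probe sets of the _x_at type, which can bind related sequences. It did not hold for a probe set of the _a_at type, designed to bind transcripts of the gene alone, which had 2656 in the control and 2763 in conditioned medium, nor for a dimmer one with 98.7 and 144. Cox5a had signals of 5994, 4495, 5038 and 5143 and stayed within 1.5-fold.

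Cox7c was the exception among the members. Its signals were 51.9 in the control, 94.2 with live 1D8 cells, 105 with irradiated 1D8 cells and 84.9 in conditioned medium, close to the floor of 44.3. A further probe set of the gene was under the floor on all 4 arrays, with signals between 4.70 and 28.5. With the floor at the 75th percentile of signals (155.6) the gene had no ratio left. Without Cox7c the medians over the members were -0.52, -0.50 and -0.37 and no member was 1.5-fold higher anywhere. The annotation used here gives no sequence for these probe sets, so whether they bind the expressed transcript was not tested.

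The members were measured by 93 probe sets in all, and 28 of them by several. Besides the probe sets used, 36 others of 25 members were above the floor on all arrays. Of these, 33 were below the control with live cells, 30 with irradiated cells and 30 in conditioned medium, with medians of -0.55, -0.54 and -0.33. The exceptions to the direction of the probe set used were of Ndufs4 and Ndufs8 in the live coculture, and of these and Cox5b and Uqcrq in the other cultures. Probe sets of the same member differed with an SD of 0.37, 0.40 and 0.42 in their log2 ratio to the control. For comparison, the same SD over all genes with several probe sets was 0.50, 0.45 and 0.45. A difference of 1.5-fold, 0.58 on the log2 scale, is thus not much larger than the SD pooled over the members. That pooled SD is raised by a few members whose probe sets disagreed. Those of Ndufs8 ran from -0.77 to 1.28 in the live coculture. The pooled SD therefore does not give the disagreement for a typical member. Disagreement between probe sets on the same RNA is technical and does not stand for biological replicates.

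The treated cultures differed from each other less than from the control. No member differed 1.5-fold between the live and the irradiated coculture, beside 2.57% of all genes higher and 1.83% lower in the live coculture. None differed 1.5-fold between the live coculture and conditioned medium (5.50% of all genes higher and 5.18% lower in the coculture) or between the irradiated coculture and conditioned medium (5.09% higher and 5.63% lower in the coculture). The members' medians for these pairs were -0.04, -0.09 and -0.05. Complex IV had the live coculture under the irradiated one by a median of -0.16 and under conditioned medium by a median of -0.21, whereas the complex I median against conditioned medium was -0.05. The widest gap for a single member between the cocultures was that of Uqcrh, with a log2 ratio of -0.56. Sdha was lower in the live coculture than in conditioned medium by a log2 ratio of -0.49, and Ndufv1 lower in the irradiated coculture than in conditioned medium by a log2 ratio of -0.53. Probe sets of the same member differed with an SD of 0.17, 0.21 and 0.22 in these ratios.

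Other genes of the pathway, from lists drawn up for this comparison, were read in the same way. At 1.5-fold, 12.4%, 13.0% and 10.2% of the genes above the floor were lower in the live coculture, the irradiated coculture and conditioned medium. The shares higher were 13.3%, 12.1% and 11.8%. Of 14 further complex I genes, 11 were measured, with medians of -0.42, -0.43 and -0.41 in the same order. In each comparison, 3 of the 11 (27.3%) were lower at 1.5-fold. Ndufa13, also known as an interferon and retinoic acid regulated cell death gene, had signals of 3152, 1537, 1667 and 1835. Ndufb11, of the membrane arm, had signals of 2471, 1295, 1241 and 1619. Both were lower on all treated arrays, as most of the members were. The 3 further subunits of complexes III and IV (Uqcr10, Uqcr11 and Cox6a1) were below the control on every treated array, with 2, 0 and 0 lower at 1.5-fold. None of the 13 mitochondrially encoded subunits was measured by a probe set with a gene name used here.

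ATP synthase, which uses the proton gradient, was also mostly lower on the treated arrays. All 18 genes listed for it were measured and had medians of -0.59, -0.46 and -0.40, with 10, 4 and 4 genes lower at 1.5-fold and none higher. Those were 55.6%, 22.2% and 22.2% of the list, beside 18.6%, 16.7% and 15.4% of the other genes in the members' interquartile range of signal. Several ATP synthase genes were brighter than that range of 827 to 1922, such as Atp5g3 with 6075 in the control. Those other genes are therefore not matched in signal to this list. After quantile normalization the counts were 3, 1 and 2 of 18, beside 12.3%, 11.4% and 8.9% of the same other genes. The share of the list lower was then under that of the other genes in the irradiated coculture. It was little above theirs in the live coculture and in conditioned medium. Atp5k, a small subunit of the membrane part involved in holding dimers together, had signals of 4031 in the control, 1994 with live 1D8 cells, 1640 with irradiated 1D8 cells and 1611 in conditioned medium. It was 2.02-fold, 2.46-fold and 2.50-fold lower. Atp5e, the epsilon subunit of the catalytic head, had signals of 1789, 959, 1164 and 1097. Atpif1, the inhibitor that blocks reverse rotation, had signals of 1631, 1450.2, 1536 and 1658 and stayed close to the control. The catalytic beta subunit Atp5b, with signals of 4352, 3395, 3254 and 3850.1, was within 1.5-fold.

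**Figure D4:**
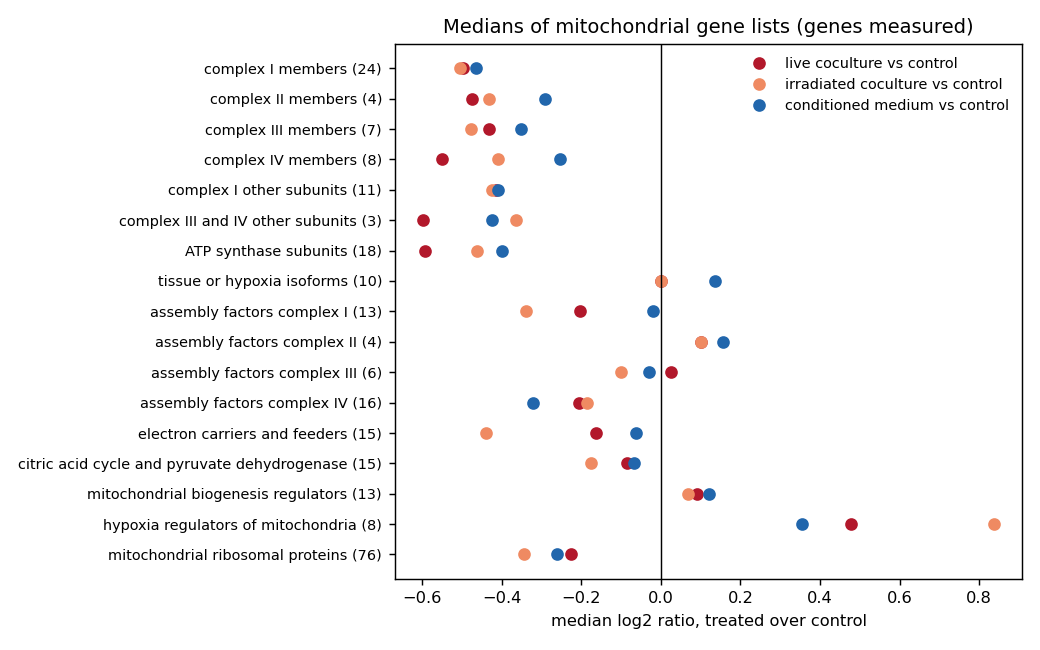
Median log2 ratio of the treated to the control array (x axis) for the members of each complex and for other lists of mitochondrial genes (y axis, genes measured in brackets), with 1 point per treated culture. The lists of subunits, ATP synthase included, lie between -0.25 and -0.60, the biogenesis regulators lie within 0.12 of 0, and the hypoxia regulators lie between 0.35 and 0.84.

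Assembly factors, which build the complexes without staying in them, gave medians between -0.34 and 0.16. The 13 factors of complex I had medians of -0.20, -0.34 and -0.02, with 2, 2 and 2 lower at 1.5-fold. Those were 15.4% of the list each time, beside 12.4%, 13.0% and 10.2% of the genes above the floor. Among them Ndufaf4 had signals of 248, 147, 145 and 162. None of the 4 complex II factors differed 1.5-fold. Of the 6 complex III factors, Bcs1l was higher at 1.5-fold in the live coculture and conditioned medium, and Uqcc3 lower in the live coculture. The 16 measured factors of complex IV had medians of -0.21, -0.19 and -0.32, with 2, 4 and 4 lower (12.5%, 25.0% and 25.0%). Sco2, a copper chaperone for the enzyme, had signals of 176 in the control, 73.3 with live 1D8 cells, 49.6 with irradiated 1D8 cells and 18.3 in conditioned medium. It was 2.41-fold and 3.56-fold lower in the cocultures and at least 3.98-fold lower in conditioned medium. Lrpprc, which stabilises mitochondrial messages, had signals of 349, 275, 198 and 179.

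Isoforms that replace a member in particular tissues or in low oxygen were mostly dim. Of 10, 7 were above the floor on any array. Ndufa4l2, induced in low oxygen, had signals of 43.5 in the control, 59.6 with live 1D8 cells, 84.6 with irradiated 1D8 cells and 48.6 in conditioned medium, and was at least 1.91-fold higher in the irradiated coculture. Cox4i2, the low-oxygen form of Cox4i1, had signals of 36.2, 66.9, 62.1 and 56.9, and was at least 1.51-fold higher in the live coculture. Both lay near the floor, where ratios are least certain. Cox7a2l, a factor of respiratory supercomplexes, had signals of 2175, 1266, 1653 and 1910 and was 1.72-fold lower in the live coculture. Cox6a2, Cox6b2, Cox7a1 and Cox8c were within 1.5-fold in all 3 comparisons with the control.

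Regulators of mitochondrial biogenesis did not move as a group. Of 13, 2, 1 and 2 were higher and 2, 2 and 1 lower at 1.5-fold, with medians of 0.09, 0.07 and 0.12. The shares were 15.4%, 7.69% and 15.4% higher, beside 13.3%, 12.1% and 11.8% of the genes above the floor. Those lower were 15.4%, 15.4% and 7.69%, beside 12.4%, 13.0% and 10.2%. Ppargc1b, a coactivator of respiratory genes, had signals of 345 in the control, 129 with live 1D8 cells, 121 with irradiated 1D8 cells and 222.5 in conditioned medium. Pprc1, a related coactivator, had signals of 225.5, 128, 95.3 and 175. Both coactivators were lower on all treated arrays, and each had 1 probe set. Ppargc1a was under the floor on all arrays. Gabpa, the DNA-binding subunit of GABP, had signals of 208, 336, 292 and 302. A further probe set of Gabpa, above the floor on all arrays, had signals of 87.6, 218.5, 218.4 and 200.6. Its ratios to the control were larger on every treated array. Gabpb1, the partner of Gabpa, had signals of 35.3, 113, 97.9 and 108. By this probe set, which was under the floor in the control, Gabpb1 was at least 2.56-fold, 2.21-fold and 2.44-fold higher. A further probe set of Gabpb1, above the floor on all arrays, gave log2 ratios of only 0.55, 0.16 and 0.23. Tfb1m, a mitochondrial RNA methyltransferase, was 1.86-fold higher in conditioned medium. By the probe sets used, Nrf1, Esrra, Tfam, Tfb2m, Polrmt, Polg and Yy1 were within 1.5-fold on all treated arrays.

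Several genes through which low oxygen acts on mitochondria were higher on the treated arrays. Of 8 measured, 4, 4 and 3 were higher at 1.5-fold (50.0%, 50.0% and 37.5%), beside 13.3%, 12.1% and 11.8% of the genes above the floor. The medians of the 8 were 0.48, 0.84 and 0.35. Bnip3, a receptor for the removal of mitochondria, had signals of 245 in the control, 2863 with live 1D8 cells, 3719 with irradiated 1D8 cells and 737.5 in conditioned medium. Pdk1, a kinase that inhibits pyruvate dehydrogenase, had signals of 315, 1115, 1218 and 551 in that order. Mxi1, an antagonist of Myc, had signals of 463, 1187, 1494 and 774. Hif1a, a subunit of the oxygen-responsive factor itself, had signals of 1748, 2768, 4579 and 2345. Further probe sets of Hif1a were also higher, with signals of 388.7, 657.9, 1254.7 and 618.4 for 1. Another had 53.4, near the floor, in the control and 741.8, 1131.2 and 540.6 on the treated arrays. The remaining probe set was under the floor in the control and with live cells. By the probe sets used, the irradiated coculture was highest for these 4 genes and conditioned medium was the treated array nearest the control. Higd1a, a small protein that binds complex IV, was within 1.5-fold in the cocultures and 1.89-fold lower in conditioned medium. Whether these genes and the members moved together for a shared reason was not tested.

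Markers of the cells in the cultures also differed between arrays. All 12 dendritic cell markers were above the floor on every array, and their summed signal was 24584 in the control, 14940.5 with live 1D8 cells, 15757 with irradiated 1D8 cells and 22602 in conditioned medium. That sum is carried by the genes of highest signal, such as Cd74 and the class II genes, and the markers did not go 1 way. Cd80, the protein used for the sort, had signals of 85.5, 378, 326 and 201, and Cd86 had 149, 234.5, 340 and 222.0, both higher on all treated arrays. Ccr7 was lower on all of them, with 596, 132, 117.5 and 176. The part of these differences in the members' values was not tested. The summed signal of 10 epithelial or mesothelial markers was 425 in the control, 2858 with live 1D8 cells, 3485 with irradiated 1D8 cells and 711 in conditioned medium. Of these 10, 6 and 7 were at least 2-fold higher in the cocultures and 0 in conditioned medium. The part of this in the members' values was not tested. In conditioned medium Cdh1 had a signal of 338 against 189.5 in the control, Epcam 168.5 against 104 and Krt18 58.3 against 9.9, which is under the floor. Krt8 was nearly level, with 64.1 against 66.1. Krt7, Krt19, Upk3b, Upk1b, Msln and Wt1 were under the floor on both of these arrays. The 7 macrophage markers summed to 22864, 23429.7, 26660.4 and 22443, of which Cd14 gave 2258, 5615, 7822.5 and 2311. In both cocultures Cd14, Fcgr1 and Mrc1 were higher than in the control, and Adgre1, Csf1r, Mertk and Cd68 were lower. The 6 mesenchymal markers summed to 368, 999, 1112 and 415, and the 5 measured lymphoid markers to between 82.2 and 177. The 7 measured neutrophil markers summed to 1940, 810, 995 and 838.5, and the 6 mast cell or basophil markers to 1232, 177, 281 and 706. The sums of both these lists were lower on all treated arrays, as most members were, and its part was not tested. As a sign of RNA integrity, the signal of 3′ over 5′ control probe sets was between 1.12 and 1.30 for Actb and between 0.793 and 0.880 for Gapdh, with the control array highest on both. The part of RNA quality was not tested either.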

How the data were processed

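Total RNA was amplified once with an oligo-dT primer, labelled with biotin and hybridised to 4 Affymetrix arrays, 1 per condition. The authors deposited 1 linear intensity per probe set, made with GCOS 1.4 and MAS5 per the submitters' processing notes. The scaling target is not given in the sources used here, and the mean of the deposited intensity without the outer 2% at each end was 150.0 on all arrays. MAS5 subtracts mismatch intensity, so ratios of dim probe sets are unsteady, and scaling to a common mean sets lower genes off against higher ones.

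Of 45101 probe sets, 64 controls and 10092 not assigned to exactly 1 gene were dropped; 1 of the latter, assigned to several genes, named a member. The other 34945 gave 18193 genes, named through the platform annotation, each at the probe set whose log2 signal averaged highest. Signals were raised to the floor of 44.3 and compared as log2 ratios at 2-fold and 1.5-fold. A fold whose lower side did not exceed the floor is a lower bound ("at least"). Medians, ranges and SDs are over genes. With 1 array per condition there was no test and no p-value. The calculation was tested on simulated data before use.

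Alternatives were the floor at the 25th or 75th percentile, quantile normalization, median centring, the mean over probe sets, and no _x_at or _s_at probe sets. The exclusion of Cox7c, the comparison with genes in the members' range of signal, and the promoter motifs were added after seeing the data. The members and lists were chosen with earlier results of these data known. Given in full were members past 1.5-fold against the control and, per complex, those with the highest signal and the highest and lowest ratio; from each other list, up to 4 genes with the largest ratios past 1.5-fold, and all isoforms and biogenesis regulators above the floor. Detection calls were not used. Python 3.11.15, NumPy 2.4.6, pandas 2.3.3 and Matplotlib 3.10.9 were used.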

Additional observations from a re-analysis of the deposited data

How the results depend on the processing

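The medians of the members and of each complex against the control stayed under 0 under every alternative tried. Counts of members past a threshold moved more, as did the share past 1.5-fold of the 956 other genes, given above by scaling. With the floor at the 75th percentile, Cox7c had no ratio and the number higher was 0 at 1.5-fold in all 3 comparisons with the control and 0 at 2-fold in the irradiated coculture. The same counts were 0 with the mean over probe sets, without _x_at and _s_at probe sets, and without Cox7c. Under quantile normalization 1 member was 2-fold lower in each comparison, 8 in the live coculture and 4 in conditioned medium were 1.5-fold lower, 0 were 2-fold higher in the irradiated coculture and 0 were 1.5-fold higher in conditioned medium. With median centring, 4 members were 2-fold lower in the live coculture, 25 in the live coculture and 16 in conditioned medium were 1.5-fold lower, 0 were 2-fold higher in the irradiated coculture, and 1 was 1.5-fold lower in the live than in the irradiated coculture. With the mean over probe sets, 1 member was 2-fold lower in the live coculture and 1 in conditioned medium, and Ndufs8 turned from lower to a log2 ratio of 0.0161 in conditioned medium, and Ndufs4, close to the control, to 0.10 in the live coculture. Without _x_at and _s_at probe sets, Cox5b turned to 0.0572 in conditioned medium and Uqcrq, left with a probe set of signal under 100, turned to 0.51 in the irradiated coculture and 0.07 in conditioned medium, and 1 member was 1.5-fold lower in each comparison between treated cultures (Uqcrq, live against irradiated, log2 ratio -0.70; Cox5b in both cocultures against conditioned medium). These follow from the probe sets that each setting leaves. No paired analysis was possible because each condition had 1 array. Without replicates, nothing here measures how far a repeat culture would differ, and signals near the floor, such as that of Cox7c, limit any ratio drawn from them.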

Other observations

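The 76 genes for mitochondrial ribosomal proteins, which make the mitochondrially encoded subunits, had median log2 ratios of -0.23 with live 1D8 cells, -0.34 with irradiated cells and -0.26 in conditioned medium, with 8, 15 and 10 lower and 2, 0 and 0 higher at 1.5-fold. The shares lower were 10.5%, 19.7% and 13.2%, beside 12.4%, 13.0% and 10.2% of all genes above the floor and 18.6%, 16.7% and 15.4% of the other genes in the members' interquartile range of signal. Many of the 76 genes were dimmer than that range of 827 to 1922. Mrps6 had signals of 370 in the control, 184 with live 1D8 cells, 145 with irradiated 1D8 cells and 153 in conditioned medium, and was 2.01-fold, 2.55-fold and 2.42-fold lower. Mrps18b had signals of 358, 242, 155 and 92.5 and was 3.87-fold lower in conditioned medium. Mrpl18 and Mrpl50 were the 2 that were higher, both in the live coculture.

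Enzymes of the citric acid cycle and pyruvate dehydrogenase, which feed the chain with NADH and succinate, had medians of -0.08, -0.18 and -0.07 over 15 genes, with 2, 3 and 0 lower (13.3%, 20.0% and 0%) and 1, 0 and 0 higher at 1.5-fold. The median in the live coculture was 0.08 under quantile normalization. Fh1, the fumarase that follows succinate dehydrogenase, had signals of 891 in the control, 536 with live 1D8 cells, 417.5 with irradiated 1D8 cells and 734 in conditioned medium. Of 15 electron carriers and enzymes that feed ubiquinone, 1, 5 and 4 were lower at 1.5-fold (6.67%, 33.3% and 26.7%) and none was higher, beside the 12.4%, 13.0% and 10.2% of genes above the floor. Etfb, which passes electrons from fatty acid oxidation, had signals of 1498, 785, 773 and 835 and was lower on all treated arrays. Cycs, the somatic cytochrome c, had signals of 3073, 2743, 2265 and 2897 and stayed within 1.5-fold.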
